A study of Homo sapiens with 6 samples.

Results

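The RNA of 9 cell surface proteins used or proposed as targets for imaging, antibodies or cell therapy in prostate cancer was followed through 6 prostate cancer cell lines: FOLH1, STEAP1, STEAP2, PSCA, CD276, CEACAM1, CEACAM5, CEACAM6 and MUC1. They were chosen by gene name, and each name matched 1 of the 51698 entries of every expression table, so no member was a sum of entries. The 3 castration-sensitive lines were LNCaP (written LnCaP in the labels), VCaP and LAPC4. Their castration-resistant counterparts were LNCaP-abl for LNCaP, VCaP-CR for VCaP and LAPC4-CR for LAPC4, and each of the 6 gave 1 library. LNCaP and LAPC4 were kept in RPMI with 10% serum and VCaP in DMEM with 10% serum, while all 3 resistant lines were kept in RPMI with 10% charcoal-stripped serum, which is depleted of steroids, and B27 supplement. Medium and castration resistance therefore changed together and cannot be told apart; each resistant state is represented by a single line per parent. A lineage below means a sensitive line and its resistant counterpart.

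Surface antigens reach the outside of the cell in several ways. FOLH1, better known as prostate-specific membrane antigen, is a carboxypeptidase with a short intracellular tail that is taken up into the cell when a ligand binds, a property used in imaging and radioligand therapy. STEAP1 and STEAP2 are multi-pass membrane proteins of a family of metalloreductases, PSCA is a small protein of the LY6 family held by a lipid anchor, and CD276 (B7-H3) is an immunoglobulin-like ligand related to the checkpoint ligands. CEACAM5 (carcinoembryonic antigen) and CEACAM6 are lipid-anchored adhesion proteins, CEACAM1 is their transmembrane relative with an inhibitory cytoplasmic tail, and MUC1 is a heavily glycosylated transmembrane mucin of glandular epithelium. In prostate tissue FOLH1, the STEAP proteins and PSCA are known as antigens of epithelial cells, and FOLH1 is known to be held down by androgen signalling.

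The data turn on 3 antigens, CEACAM5, CEACAM6 and MUC1, that were low in 5 lines and far higher in LAPC4-CR. The DNA just upstream of their starts is therefore shown first, with that of CEACAM1, the relative that stayed low in all 6 lines. Each is the 250 bases before the annotated start in RefSeq on GRCh38.p14, written 5′ to 3′ on the gene's strand, and 7 of the 9 members had an entry (for MUC1 the first of 2 is shown). CEACAM1 lies at chr19:42528482-42528731 on the minus strand, CEACAM5 at chr19:41708376-41708625 on the plus strand, CEACAM6 at chr19:41755280-41755529 on the plus strand and MUC1 at chr1:155192916-155193165 on the minus strand. Capitals mark matches, on either strand, to the TATA box letters TATAAA, the GC box letters GGGCGG, the E-box letters CACGTG or the androgen receptor half-site letters AGAACA; overlapping matches run together.
CEACAM1: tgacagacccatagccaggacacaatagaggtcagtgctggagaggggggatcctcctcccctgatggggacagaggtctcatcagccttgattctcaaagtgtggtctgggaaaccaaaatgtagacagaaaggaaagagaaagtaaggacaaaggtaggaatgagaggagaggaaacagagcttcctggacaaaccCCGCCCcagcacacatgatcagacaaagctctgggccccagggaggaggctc
CEACAM5: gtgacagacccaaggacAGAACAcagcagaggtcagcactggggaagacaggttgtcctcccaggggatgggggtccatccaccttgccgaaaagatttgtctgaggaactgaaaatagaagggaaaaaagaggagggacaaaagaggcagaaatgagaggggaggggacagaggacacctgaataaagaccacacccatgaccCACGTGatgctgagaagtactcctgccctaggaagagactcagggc
CEACAM6: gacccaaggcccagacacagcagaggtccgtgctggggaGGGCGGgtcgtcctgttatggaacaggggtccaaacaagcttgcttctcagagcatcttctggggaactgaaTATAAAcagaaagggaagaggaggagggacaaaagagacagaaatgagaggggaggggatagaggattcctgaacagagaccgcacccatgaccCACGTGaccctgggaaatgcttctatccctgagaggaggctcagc
MUC1: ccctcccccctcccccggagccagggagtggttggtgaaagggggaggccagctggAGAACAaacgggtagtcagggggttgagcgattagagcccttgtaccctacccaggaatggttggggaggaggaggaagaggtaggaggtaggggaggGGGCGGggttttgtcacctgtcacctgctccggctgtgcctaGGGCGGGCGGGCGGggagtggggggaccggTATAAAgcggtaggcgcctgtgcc
The CEACAM5 and CEACAM6 windows were identical at 74.6% of alignment positions, gaps counted as positions. CEACAM1 and CEACAM6 were identical at 68.3% and CEACAM1 and CEACAM5 at 65.7%, against 44.9% to 53.5% for the other pairs among the 7 windows. CEACAM5 and CEACAM6 both held CACGTG and CEACAM1 and MUC1 did not hold it. Among 27303 RefSeq windows of the same length, 6.49% held CACGTG. The CEACAM6 and MUC1 windows held TATAAA (11.1% of all windows did), and those of CEACAM5 and MUC1 held AGAACA (12.4% of all). GGGCGG was found in 5 of the 7 windows and in 42.3% of all windows, with 7 matches in CD276. The STAT-type letters TTCNNNGAA, where N is any base, were in none of the 7 windows and in 6.78% of all. These matches describe letters in a window and say nothing of binding.

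The libraries held 8661337 to 22433655 counted reads, of which 62.8% to 79.5% fell on protein-coding genes, and levels are given below as FPKM (read count per gene length and library size) after scaling of each library by a median ratio, called scaled FPKM. Of the 9 members, 8 had a mean of at least 1 scaled FPKM and entered the tests, which covered 17418 genes in all; CEACAM1 did not, and CEACAM5, CEACAM6 and MUC1 passed only through LAPC4-CR. KLK3, the androgen-driven gene of prostate-specific antigen, was lower in every resistant line (602 against 0.667 scaled FPKM in the LNCaP lineage, 321 against 19.0 in VCaP and 105 against 2.07 in LAPC4). ERG, which VCaP expresses from a gene fusion, stood at 16.6 and 5.42 scaled FPKM in the VCaP lines and at no more than 0.191 in the others. The 8 markers of fibroblasts, leukocytes and endothelium, cells that a pure line should lack, stood between 0.127 and 1.34 scaled FPKM, which gives a scale for low values. In bulk RNA, fewer cells with a transcript and less transcript per cell cannot be told apart.

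FOLH1 (ENSG00000086205, chr11:49124763-49186798; these and the gene coordinates below are those of the deposited tables, for which the submitters' notes name hg18) was the most abundant of the 9 in LNCaP and LAPC4. In the LNCaP lineage it stood at 129.6 scaled FPKM in the sensitive and 120.0 in the resistant line. The VCaP lineage had 11.4 and 24.7 and the LAPC4 lineage 40.8 and 26.4 scaled FPKM, sensitive line first. Both LNCaP lines were above every other line and both VCaP lines below, and the sensitive and resistant groups overlapped. The resistant line was lower than its parent in the LNCaP lineage by a log2 change of -0.11, higher in VCaP by 1.05 and lower in LAPC4 by -0.61. By counted reads, LAPC4-CR and VCaP-CR were the only neighbours in this order whose ratio interval reached 1 (1.07, 95% interval 1.00 to 1.14); these intervals, here and below, cover counting error only. In the fit across all 17418 genes with lineage as a block, FOLH1 had a log2 change of 0.12 (SE 0.38, adjusted p = 0.946 by edgeR's quasi-likelihood test), and the mean change over the 3 pairs was 0.11 ± 0.85 (SD, n = 3). Without the VCaP pair the sign turned to -0.37.

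FOLH1B, a relative on the same chromosome, shares 41.2% of the 50-base words of the FOLH1 transcript, and how the deposited counts divided such reads is not given in the sources used here. The ratio of FOLH1 to FOLH1B in FPKM, sensitive line first, was 1.70 and 2.40 in the LNCaP lineage, 1.90 and 1.88 in VCaP, and 2.11 and 1.76 in LAPC4, so FOLH1 was the higher of the 2 throughout. With the reads of both genes summed, the log2 ratios of resistant to sensitive line were -0.24, 1.11 and -0.56, each with the sign of FOLH1 alone. TFRC, the transferrin receptor, a structural relative, lay between 33.5 and 56.4 scaled FPKM in all 6 lines. Among the 6 relatives found, 3 were tested and 0 differed between resistant and sensitive lines by edgeR, DESeq2 or limma, with 1 at an unadjusted edgeR p under 0.05; FOLH1B alone differed between lineages (adjusted p = 0.0266).

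STEAP1 (ENSG00000164647, chr7:89621625-89632079) and STEAP2 (ENSG00000157214, chr7:89634840-89708027) are neighbours, 2761 bases apart, and both were low in the LAPC4 lineage. Sensitive line first, STEAP1 stood at 105 and 133 scaled FPKM in the LNCaP lineage, 67.3 and 79.0 in VCaP, and 14.8 and 7.5 in LAPC4. STEAP2 stood at 39.1 and 134 scaled FPKM in the LNCaP lineage, 71.2 and 119 in VCaP, and 2.29 and 1.35 in LAPC4. Both LAPC4 lines were thus below the other 4 for both genes, and the nearest lines of the 2 sets differed by 4.54-fold for STEAP1 and 17.1-fold for STEAP2. The sensitive and resistant groups overlapped for both. The log2 changes of STEAP1 were 0.34 (LNCaP pair), 0.23 (VCaP pair) and -0.90 (LAPC4 pair), and those of STEAP2 were 1.75, 0.74 and -0.49, so both were higher in the resistant line of LNCaP and VCaP and lower in that of LAPC4. Neither passed the test over the 3 pairs: edgeR gave -0.12 (SE 0.33, adjusted p = 0.934) for STEAP1 and 0.61 (SE 0.48, adjusted p = 0.721) for STEAP2. Without the LAPC4 pair the STEAP1 value was 0.29, and without the LNCaP pair the STEAP2 value was 0.0050.

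The 2 genes did not move by the same amount. STEAP2 has the oxidoreductase domain of the family and STEAP1 lacks it, and the ratio of STEAP2 to STEAP1 in scaled FPKM, a comparison of levels per length, was 0.371 in LNCaP and 1.00 in LNCaP-abl. In the VCaP lineage it was 1.06 and 1.51, and in the LAPC4 lineage 0.154 and 0.180. The ratio was therefore higher in the resistant line of every pair, most in LNCaP, where STEAP2 rested on 4168 and 17483 reads. In the LAPC4 pair the counting intervals overlapped (0.132 to 0.180 in LAPC4, 0.154 to 0.210 in LAPC4-CR). Across the 6 libraries the log2 levels of STEAP1 and STEAP2 had a Pearson correlation of 0.95, a description of 6 libraries from 3 lineages. Within 500 kb of STEAP1, the tested genes at least 2-fold higher in LNCaP-abl were STEAP2 and CDK14, a cyclin-dependent kinase, with a log2 change of 2.05. STEAP1B, a near-copy that shares 22.1% of the 50-base words of STEAP1, was lower than STEAP1 in every line, at 0.268 to 6.04 scaled FPKM.

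**Figure D1:**
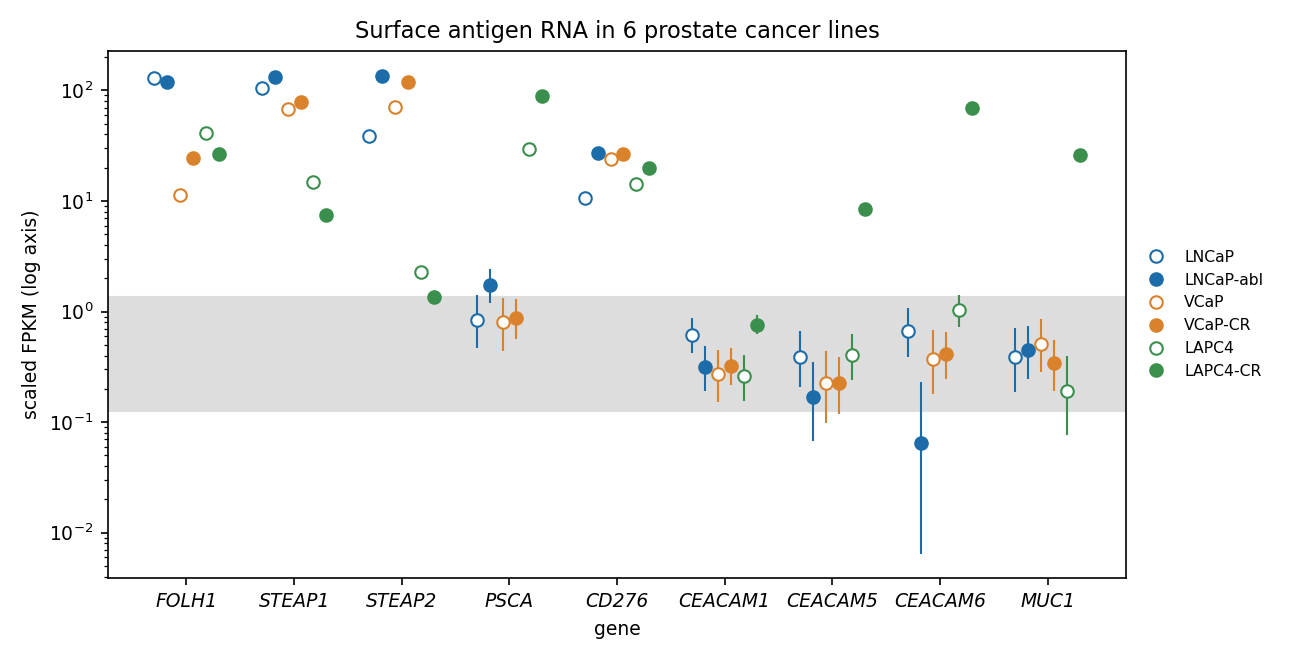
Level of each of the 9 surface antigens in each of the 6 cell lines, in scaled FPKM on a log axis; each point is 1 library, coloured by lineage, open for the sensitive and filled for the resistant line. Bars are 95% counting intervals and the grey band spans the 8 markers of other cell types. FOLH1, STEAP1, STEAP2 and CD276 are above 1 in all 6 lines, PSCA is high in both LAPC4 lines, and CEACAM5, CEACAM6 and MUC1 are high in LAPC4-CR.

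PSCA (ENSG00000167653, chr8:143748728-143761144) was high in the LAPC4 lineage, the one in which the STEAP genes were lowest. LAPC4 had 29.6 and LAPC4-CR 88.3 scaled FPKM. The other 4 lines had 0.847 (LNCaP), 1.73 (LNCaP-abl), 0.797 (VCaP) and 0.878 (VCaP-CR), and the sensitive and resistant groups overlapped. LAPC4 exceeded the next line by 17.2-fold (95% interval 12.2 to 24.8), and in LAPC4-CR PSCA was the most abundant of the 9 members. The resistant line was higher in all 3 pairs, with log2 changes of 0.56, 0.06 and 1.55, but the LNCaP pair rested on 14 and 35 reads (ratio 2.04, 95% interval 1.07 to 4.10) and the VCaP pair on 14 and 25 (ratio 1.10, 0.551 to 2.29). The mean change was 0.72 ± 0.75 (SD, n = 3; exact sign-flip permutation test, two-sided p = 0.25, the smallest that 3 pairs allow). In the edgeR fit the log2 change was 1.01 (SE 0.36, unadjusted p = 0.0257, adjusted p = 0.527), and without the LAPC4 pair it was 0.60 (adjusted p = 0.902). PSCA overlaps JRK, a gene whose counts (159 and 498 in the LNCaP lineage, 250 and 413 in VCaP, 153 and 312 in LAPC4) were above those of PSCA in the 4 lines where PSCA was low and below them in both LAPC4 lines. The part of shared reads in the low PSCA values was not tested.

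CD276 (ENSG00000103855, chr15:71763607-71793912) varied least among the 8 tested antigens. Sensitive line first, its level was 10.6 and 27.1 scaled FPKM in the LNCaP lineage, 23.98 and 26.8 in VCaP, and 14.3 and 19.99 in LAPC4, a range of 1.27 on the log2 scale against 3.01 to 6.03 for the other 7. The sensitive lines averaged 16.3 ± 6.90 and the resistant lines 24.6 ± 3.998 scaled FPKM (SD, n = 3 each), and the groups overlapped because VCaP exceeded LAPC4-CR. The resistant line was higher in each pair, with log2 changes of 1.27, 0.15 and 0.46. By edgeR the change was 0.66 (SE 0.30, unadjusted p = 0.0633, adjusted p = 0.563), and without the LNCaP pair it was 0.32. PSCA and CD276 were the 2 of 8 tested members that were higher in all 3 pairs, whatever the size, where 16.4% of all tested genes were. Of the checkpoint ligands related to CD276, 8 were found and ICOSLG alone was tested (0 called by edgeR, DESeq2 or limma, 1 at an unadjusted edgeR p under 0.05). ICOSLG, the ligand of a T cell costimulatory receptor, stood at 0.592 to 1.05 scaled FPKM in 5 lines and at 4.47 in LAPC4-CR.

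CEACAM6 (ENSG00000086548, chr19:46951169-46967953) had one of the largest differences of the LAPC4 pair. It stood at 1.03 scaled FPKM in LAPC4 (37 reads) and 68.6 in LAPC4-CR (4484 reads), a ratio of 66.4 (95% interval 48.1 to 94.5), and its log2 change of 5.10 was the third highest of 17418 genes in that pair. The LNCaP lineage had 0.671 and 0.0644 scaled FPKM, on 17 and 2 reads, and the VCaP lineage 0.372 and 0.413, on 10 and 18 reads. CEACAM6 was thus high in LAPC4-CR alone, and LNCaP exceeded LNCaP-abl by 10.4-fold with a counting interval of 2.48 to 93.0.

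CEACAM5 (ENSG00000105388, chr19:46904344-46926179) was also high in LAPC4-CR alone, at a lower level. LAPC4-CR had 8.42 scaled FPKM (728 reads) against 0.401 in LAPC4 (19 reads), a ratio of 21.0 (95% interval 13.4 to 35.1) and a log2 change of 2.75, which ranked 38 from the top of that pair. The other 4 lines lay between 0.170 and 0.388 scaled FPKM on 7 to 13 reads, and the ratio intervals of all neighbours in their order included 1. The ratio of CEACAM6 to CEACAM5 in FPKM was 8.15 (95% interval 7.53 to 8.82) in LAPC4-CR and 2.58 (1.44 to 4.74) in LAPC4, and in each of the other 4 lines its interval included 1. CEACAM5 and CEACAM6 lie 24990 bases apart on chromosome 19, and the CEACAM5 transcript shares 1.42% of its 50-base words with CEACAM6. More of them, 18.5%, are shared with another annotated gene, AC243967.1, which also shares 4.2% of those of CEACAM6. How such reads were counted is not given in the sources used here. Of the 15 tested genes within 500 kb of CEACAM6, CEACAM5 was the only one at least 2-fold higher in LAPC4-CR, and of the 14 near CEACAM5 the only one was CEACAM6. The nearest tested gene other than these, RPS19, a ribosomal protein gene, had a log2 change of -0.64.

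CEACAM1 (ENSG00000079385, chr19:47703298-47724501) was low everywhere. It stood at 0.617 and 0.315 scaled FPKM in the LNCaP lineage, 0.272 and 0.325 in VCaP, and 0.259 and 0.762 in LAPC4, on 15 to 102 reads. In all 6 lines this was at or below the highest of the 8 markers of other cell types in the same library. LAPC4-CR exceeded LAPC4 by a count ratio of 2.94 (95% interval 1.79 to 5.09), on 102 and 19 reads, and LNCaP exceeded LNCaP-abl by 1.96 (1.09 to 3.62), on 32 and 20 reads. The other 9 CEACAM genes found all failed the filter on low levels, and none exceeded 0.833 scaled FPKM in any line.

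MUC1 (ENSG00000185499, chr1:153424924-153429331) showed the largest count ratio of the 9. It stood at 0.193 scaled FPKM in LAPC4 (7 reads) and 25.9 in LAPC4-CR (1719 reads), a ratio of 135 (95% interval 65.2 to 335), and its log2 change of 4.50 ranked 6 from the top of that pair. LNCaP had 0.389, LNCaP-abl 0.445, VCaP 0.513 and VCaP-CR 0.339 scaled FPKM, on 10 to 15 reads. MUC1 was therefore at the level of the markers of other cell types in 4 of the 5 remaining lines, VCaP being the exception, and high in LAPC4-CR alone. MUC1 overlaps KRTCAP2, whose counts were 914 in LAPC4 and 2398 in LAPC4-CR. Of the 9 other transmembrane mucins found, MUC21 alone was tested, and it was highest in the VCaP lines at 4.196 and 8.93 scaled FPKM.

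CEACAM5, CEACAM6 and MUC1 did not pass the test between resistant and sensitive lines. The log2 change by edgeR was 1.31 (SE 1.17, adjusted p = 0.751) for CEACAM5, 1.46 (SE 1.85, adjusted p = 0.832) for CEACAM6 and 1.98 (SE 1.61, adjusted p = 0.730) for MUC1. Without the LAPC4 pair these values turned to -0.57, -1.16 and -0.21. The mean changes over the 3 pairs were 0.83 ± 1.66, 1.496 ± 3.14 and 1.46 ± 2.63 (SD, n = 3). The 8 fibroblast, leukocyte and endothelial markers stood between 0.160 and 0.386 scaled FPKM in LAPC4 and between 0.267 and 0.866 in LAPC4-CR, where all were below the 3 antigens.

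**Figure D2:**
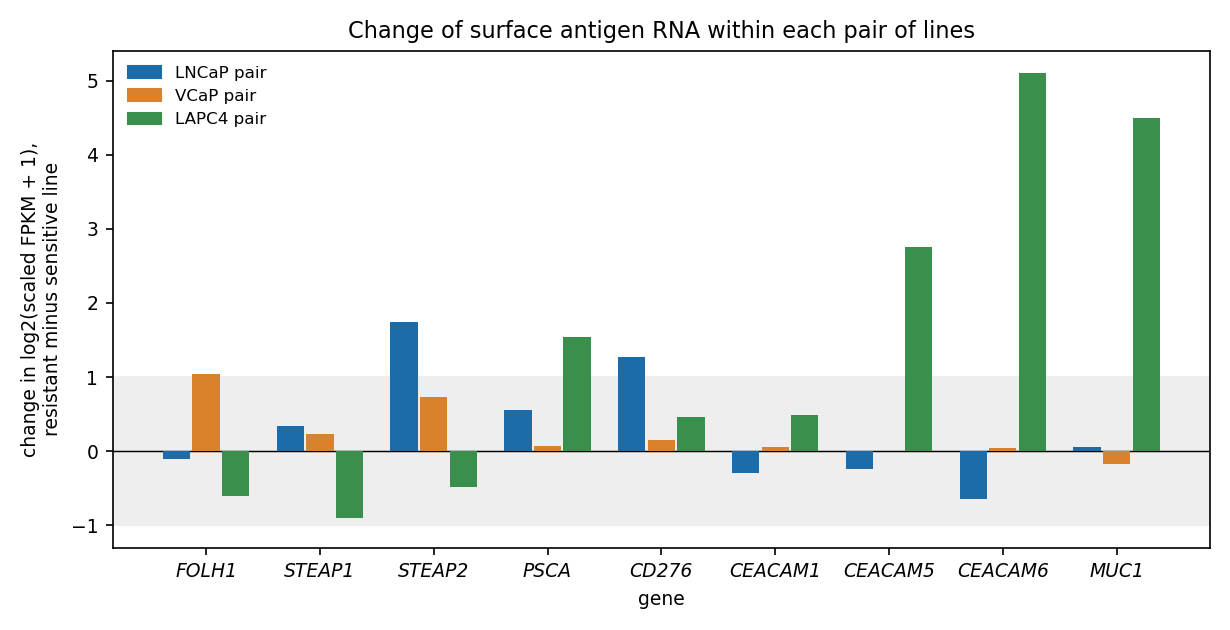
Change of each antigen in each of the 3 pairs, as the log2 difference of scaled FPKM plus 1 between the resistant and the sensitive line; each bar is 1 pair of libraries, coloured by lineage, and the grey band spans changes smaller than 2-fold. CEACAM6, MUC1, CEACAM5 and PSCA are past 2-fold in the LAPC4 pair, STEAP2 and CD276 in the LNCaP pair and FOLH1 in the VCaP pair.

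Set against all genes, the 8 tested antigens gave 0 calls between resistant and sensitive lines at an adjusted p under 5% by edgeR, and so did the whole table of 17418 genes (0.0% higher and 0.0% lower). KLK3, lower in every resistant line, had a log2 change of -6.19 by edgeR and went uncalled as well (adjusted p = 0.5255). The absence of a call therefore does not show that a member was unchanged. At an unadjusted p under 0.05, 4.96% of all genes were higher and 3.97% lower, and among the 8 members PSCA was the one that passed. DESeq2 also called 0 of the 8 members, with 157 genes of the table, and limma called 0 of both.

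Single pairs, which have no replicate check, were described by the size of the difference in log2(scaled FPKM + 1). In the LNCaP pair STEAP2 and CD276 were at least 2-fold higher (2 of 8, where 6.71% of all genes were), and none was 2-fold lower (7.86% of all). In the VCaP pair it was FOLH1 (1 of 8, where 2.57% of all genes were higher and 2.38% lower). In the LAPC4 pair PSCA, CEACAM5, CEACAM6 and MUC1 were at least 2-fold higher (5.77% of all genes were), and none of the 8 was lower (6.82% of all). Being high in LAPC4-CR was what brought CEACAM5, CEACAM6 and MUC1 past the filter on low levels, so their number is not set against that share. No member was past 2-fold in more than 1 pair.

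Lineage separated 4 of the 8 antigens, where 12.1% of all genes (2099) passed the same test. PSCA had an adjusted p of 0.00201, STEAP2 of 0.01001, STEAP1 of 0.0128 and FOLH1 of 0.0230 by edgeR, in a fit that compared the 3 lineages with castration state as a covariate. CD276 (adjusted p = 0.388), CEACAM5 (0.139), CEACAM6 (0.136) and MUC1 (0.253) did not pass. With the sensitive LAPC4 library left out, 7 of the 8 passed, CEACAM5, CEACAM6 and MUC1 being the 3 gained, in a fit where LAPC4-CR stood alone for its lineage and 21.6% of all genes (3763) passed. CEACAM5, CEACAM6 and MUC1 had passed the filter on low levels only through LAPC4-CR, the single library of its lineage in that fit. Their calls there were therefore fixed by the value that admitted them, and no conclusion is drawn from them. For the same reason the 7 of 8 cannot be weighed against the 21.6%. In the full fit each lineage had 2 libraries and each p-value measures the spread between these lines, which carries no repeat culture.

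**Figure D3:**
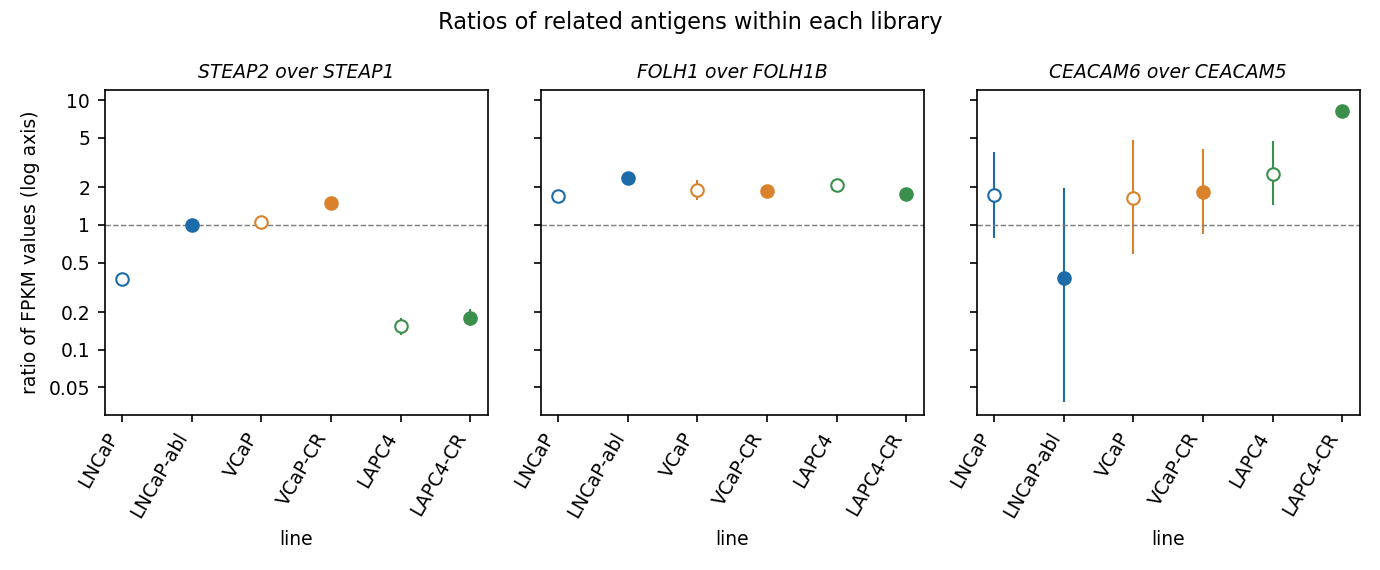
Ratios between related transcripts in each line, as FPKM ratios on a shared log axis with 95% counting intervals: STEAP2 over STEAP1, FOLH1 over FOLH1B and CEACAM6 over CEACAM5, open points for sensitive and filled for resistant lines. STEAP2 over STEAP1 is higher in the resistant line of every pair, with overlapping counting intervals in the LAPC4 pair. CEACAM6 over CEACAM5 is highest in LAPC4-CR at 8.15.

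The lines thus differed in which antigen led. FOLH1 was the highest in LNCaP, with 45.1% of the summed level of the 9 members, and in LAPC4, with 39.3%. STEAP2 led in both VCaP lines (40.4% in VCaP, 47.4% in VCaP-CR) and in LNCaP-abl (32.1%), although in VCaP and LNCaP-abl the interval of its ratio to STEAP1 included 1, and PSCA in LAPC4-CR (35.7%). LAPC4-CR had 8 of the 9 at 1 scaled FPKM or more, against 4 to 6 in the other lines. At 10 scaled FPKM or more it had 5, and each other line had 4.

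Genes with the most similar profiles were picked by Pearson correlation of log2 levels over the 6 libraries, among 11335 genes, and this is a description with 6 points from 3 lineages. The nearest to FOLH1 was CCDC53 (r = 0.99). For CEACAM5 they were S100A6, a calcium-binding protein gene, CHST1 and PRODH, and for MUC1 they were GRIN2A, a glutamate receptor subunit gene, CHST1 and KCNN4. CEACAM5 and CEACAM6 correlated at 0.998 and CEACAM5 and MUC1 at 0.99. The rank correlation was 1.0 for CEACAM5 and CEACAM6, whose 6 levels fell in the same order, and -0.03 for CEACAM5 and MUC1, which shared only their high level in LAPC4-CR. Below LAPC4-CR these orders rested on 37 or fewer reads per line. There the ratio intervals of neighbouring lines included 1 for CEACAM5 and MUC1, and for CEACAM6 in all but the lowest step. The rank values therefore cannot tell the 2 gene pairs apart.

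Other targets of antibodies or cell therapies on prostate cancer cells gave the context. Of 25 such genes 24 were found and 20 tested. Between resistant and sensitive lines 0 passed by edgeR, DESeq2 or limma, and 2 had an unadjusted edgeR p under 0.05. Between lineages 10 of the 20 passed by edgeR, where 12.1% of all tested genes did. The 3 highest were SLC39A6, a zinc transporter, at 35.8 to 162 scaled FPKM, EPCAM, an epithelial adhesion protein, at 24.7 to 108, and ALCAM, an adhesion protein of the immunoglobulin family, at 5.56 to 94.6. In the LAPC4 pair 1 of the 20 was at least 2-fold higher (5.77% of all tested genes were) and 6 were at least 2-fold lower (6.82% of all). Of the 15 LY6 and uPAR domain genes, the family of PSCA, 7 were tested and 0 passed between states or lineages by edgeR (between states also 0 by DESeq2 and limma, and 1 at an unadjusted edgeR p under 0.05). LY6E, the highest, stood at 52.5 scaled FPKM in LAPC4 and 17.2 in LAPC4-CR, while PSCA stood at 29.6 and 88.3.

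**Figure D4:**
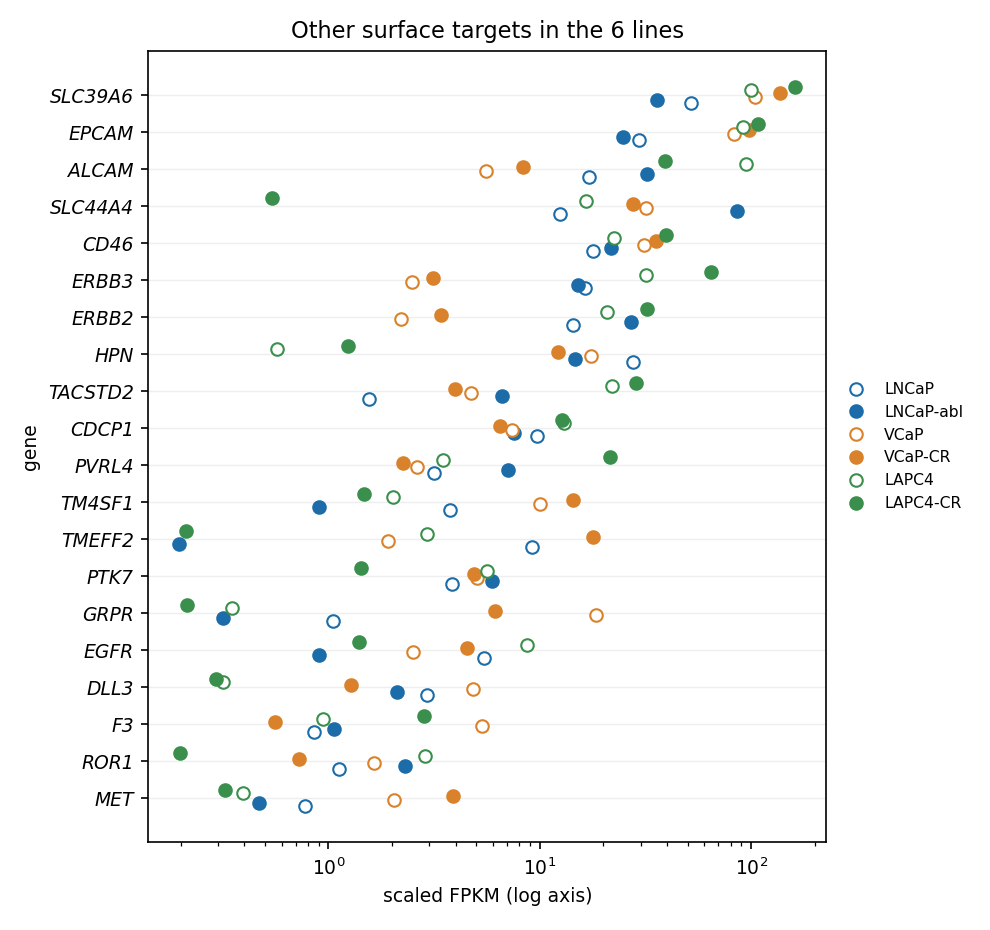
Levels of the other surface targets in the 6 lines, in scaled FPKM on a log axis, with 1 point per library (open sensitive, filled resistant) and the 20 tested genes in order of their mean. SLC39A6, EPCAM and ALCAM have the 3 highest means.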

How the data were processed

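RNA-seq tables of 6 cell lines, 1 library each, were used. Each deposited table gives, per the file headers, a read count and an FPKM value per gene made by the authors. The FPKM values were rebuilt from count, length and library total within 1% for 51698 genes. HTSeq and the build hg18 are named in the submitters' processing notes without a role; the aligner, the annotation and the strand setting: not given in the sources used here.

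Entries sharing a symbol were summed (345 symbols, 0 members) and 1372 small-RNA symbols were left out. FPKM was scaled by median ratios over 12509 genes (factors 0.863 to 1.083), and changes are differences of log2(scaled FPKM + 1). The 17418 genes whose mean scaled FPKM reached 1 were tested on the counts with edgeR 4.0.16 (quasi-likelihood, Benjamini-Hochberg), with lineage and state in the model. DESeq2 1.42.0, limma 3.58.1, another pseudocount, scaling and filter, and leaving out libraries or pairs were alternatives. The same replicate number marks a line and its derivative, so samples are paired by origin; deviations of paired lines from group means correlated at 0.45, 0.70 and 0.57. On simulated counts for the 17418 genes, the state test recovered 83% of 4-fold and 100% of 16-fold changes. The changed genes there were well counted, moved alike in all 3 pairs and had a common dispersion of 0.12. These shares therefore do not hold for genes with low counts or with pairs that differ. Count ratios have exact 95% intervals. Overlap of 50-base words was computed on GRCh38 transcripts. The members and lists were chosen with earlier results of these data known. Relatives were named by a rule: the 3 highest of a list and any that moved 2-fold one way in all 3 pairs; other genes named beyond it were chosen after their values were seen.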

Additional observations from a re-analysis of the deposited data

Results flagged for a closer look

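For 4 antigens the resistant line was higher than its parent in 1 lineage and lower in another, and in both lineages the 2 lines' 95% counting intervals did not overlap. Each lineage has 1 pair, so none of these differences was tested. For FOLH1 the LNCaP change minus the VCaP change was -1.16, and the VCaP change minus the LAPC4 change was 1.66. For STEAP1 the LNCaP change exceeded the LAPC4 change by 1.23 and the VCaP change exceeded it by 1.13. For STEAP2 these differences were 2.23 and 1.22. For CEACAM6 the LNCaP change minus the LAPC4 change was -5.75, and LNCaP-abl contributed 2 reads to it.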

How the results depend on the processing

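Between resistant and sensitive lines 0 of the 8 tested antigens were called under all 9 alternatives, including the fit with no replicate block, which called 0 genes of the table. The count over all genes, 0 with lineage as the block, was 157 with DESeq2 (93 higher, 64 lower), 118 without the filter on low levels (66 higher, 52 lower), and 1 to 89 when a pair was left out. With no replicate block the log2 change turned to -0.093 for FOLH1 and 0.23 for STEAP1. Leaving out each pair in turn gave -0.37 to 0.51 for FOLH1 (lowest without VCaP), -0.37 to 0.29 for STEAP1, -0.57 to 2.76 for CEACAM5, -1.16 to 4.01 for CEACAM6 and -0.21 to 3.89 for MUC1 (the last 3 lowest, and STEAP1 highest, without LAPC4). Between lineages 4 members were called, 5 with DESeq2, 5 with no state term and 7 without the filter. Those gained without the filter were CEACAM5, CEACAM6 and MUC1, which were high in LAPC4-CR alone. That fit covered more than the 17418 genes, so its counts are not set against the same total. With 1 library left out a lineage rests on a single library, so no conclusion is drawn from counts of those fits. The member count is given above for 1 of them, without the sensitive LAPC4 library, which had the most members called. The gene counts of those fits are given below as a range. The lineage count over all genes was 2099, and it was 3972 with DESeq2, 4783 without the filter, 1292 over protein-coding genes, and 855 to 3763 with 1 library left out. The number at least 2-fold lower in the LNCaP pair went from 0 to 1 with a pseudocount of 0.25, and the number at least 2-fold higher in the VCaP pair from 1 to 0 with a pseudocount of 5. The cause of these shifts was not tested. In the LAPC4 pair the sizes of 3 changes depended on the pseudocount, and the ranks given above are those at 1. With 0.25 and with 5 the log2 change was 5.75 and 3.61 for CEACAM6. For MUC1 it was 5.887 and 2.575, and for CEACAM5 3.735 and 1.313. MUC1 was thus above CEACAM6 at 0.25. The mean change over the 3 pairs kept its direction in 57 of 63 alternatives. Leaving out each pair in turn gave -0.36 to 0.47 for FOLH1 (turned without VCaP) and, turned without LAPC4, -0.34 to 0.28 for STEAP1, -0.12 to 0.27 for CEACAM1, -0.12 to 1.38 for CEACAM5, -0.30 to 2.57 for CEACAM6 and -0.060 to 2.28 for MUC1. Counts of 35 or fewer reads per line limit CEACAM1, CEACAM5, CEACAM6, MUC1 and PSCA outside the LAPC4 lineage.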
